A study of Mus musculus with 12 samples.

Results

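The genes described are 10 regulators of mitochondrial apoptosis, read in germ cells and somatic cells of the mouse fetal gonad at E13.5, an embryonic day: Pmaip1, Bbc3, Bcl2l11, Bax, Bak1, Bcl2, Bcl2l1, Mcl1, Apaf1 and Trp53. They were chosen by symbol, and all 10 were found in both deposited expression tables, among 12845 genes in each. Primordial germ cells (PGCs), from which eggs and sperm later form, were sorted by flow cytometry as the GFP-positive cells of gonads with an Oct4GFP reporter, a transgene that marks germ cells. The GFP-negative cells were taken as soma, with no marker of their own. The 12 libraries form 4 groups of 3, PGCs and soma from males and PGCs and soma from females, all from E13.5 embryos of the strain given as Oct4GFPxICR, with no treatment named. The series title asks about hypertranscription, a global rise in RNA output per cell, and 1 table is scaled per cell and the other per read. Whether the 3 libraries of a group came from separate litters or animals is not stated, so p-values measure only the spread between these libraries, which may be technical.

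The BCL2 family controls whether mitochondria release cytochrome c. BH3-only proteins such as NOXA (Pmaip1), PUMA (Bbc3) and BIM (Bcl2l11) carry the death signal, prosurvival proteins (BCL2, BCL-XL from Bcl2l1, and MCL1) bind and hold them back, and the effectors BAX and BAK1 form the pores when they are no longer restrained. Released cytochrome c assembles APAF1 into the apoptosome, which activates caspases, and the transcription factor p53 (Trp53) can induce Pmaip1, Bbc3, Bax and Apaf1. In the fetal gonad germ cells are lost by apoptosis in both sexes, and mouse mutants of Bax and Bcl2l1 are known for having too many or too few germ cells.

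Of the 10 genes, Pmaip1, Bcl2 and Trp53 differed most between male and female germ cells per read. Pmaip1 took 215 ± 26.9 CPM (a read count scaled to a common library total; SD, n = 3) in male PGCs and 0.698 ± 0.0962 in female PGCs. Bcl2 ran the other way, at 0.4005 ± 0.0751 CPM in male and 8.00 ± 2.07 in female PGCs, and Trp53 stood at 174 ± 47.3 against 50.6 ± 19.6. What the germ cells of both sexes shared was the balance of effectors: Bak1 was at 1.18 ± 0.499 (male) and 1.20 ± 0.816 CPM (female), against 34.5 ± 1.36 and 39.1 ± 1.03 in the 2 somas, while Bax was above soma in both. The plot of CPM by library shows every library of each member.

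**Figure D1:**
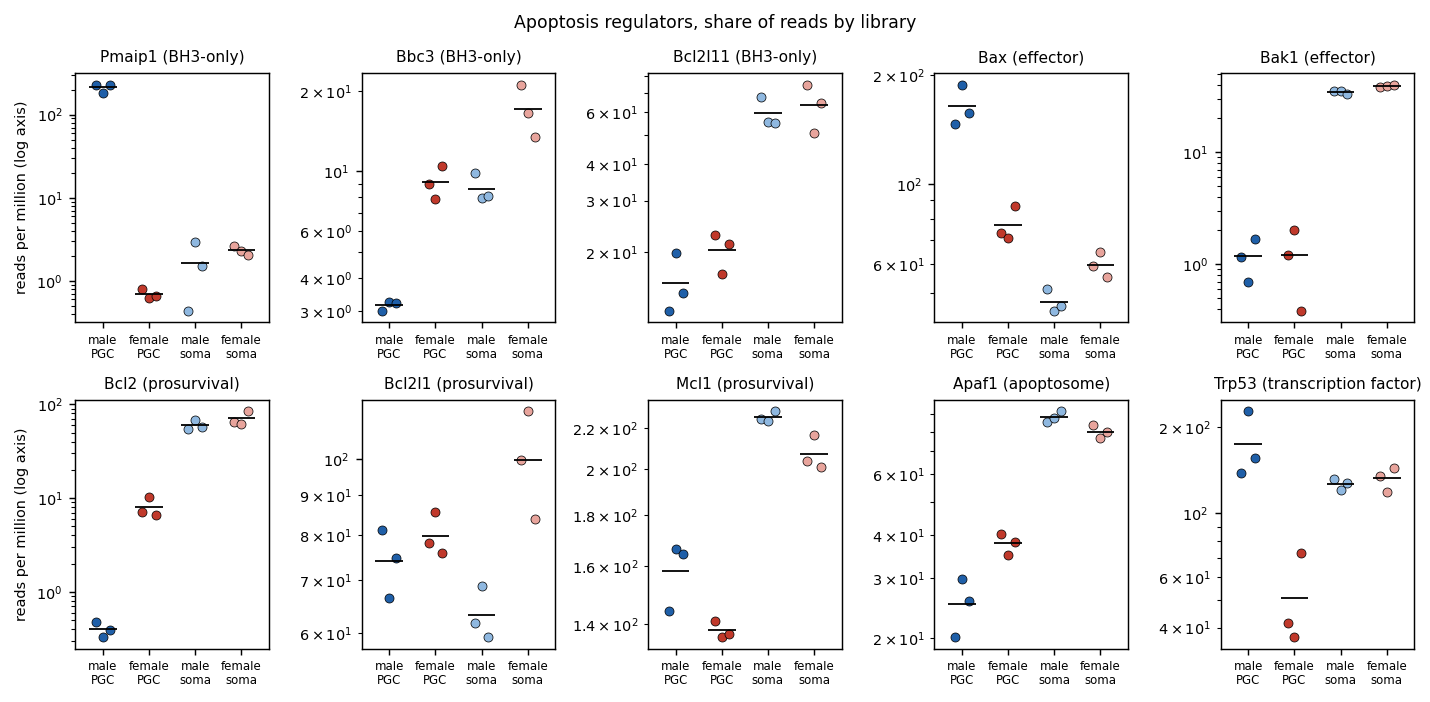
CPM of each of the 10 genes on a log axis, 1 point for each library and a line at the mean of each group of 3. Pmaip1 is high in the 3 male PGC libraries (184 to 230.2 CPM) and at most 2.98 in the other 9, and Bak1 is at most 2.01 in the 6 PGC libraries and at least 33.0 in the 6 soma libraries.

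Bax and Trp53 each have 1 match to the p53 response element decamer in the promoter windows listed by RefSeq (GRCm38.p6). Their upstream bases are shown for that reason. The capitals mark the decamer, searched on both strands in windows from 250 bases before to 50 after each start. It begins at position -201 from the start of Bax and -75 from that of Trp53.
Bax promoter, chr7:45466899-45467148, minus strand: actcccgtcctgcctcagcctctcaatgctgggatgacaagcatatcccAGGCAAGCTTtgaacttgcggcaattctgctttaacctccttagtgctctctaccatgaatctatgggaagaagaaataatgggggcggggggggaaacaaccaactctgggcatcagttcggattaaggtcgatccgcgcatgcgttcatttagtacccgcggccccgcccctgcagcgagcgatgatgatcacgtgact
Trp53 promoter, chr11:69580109-69580358, plus strand: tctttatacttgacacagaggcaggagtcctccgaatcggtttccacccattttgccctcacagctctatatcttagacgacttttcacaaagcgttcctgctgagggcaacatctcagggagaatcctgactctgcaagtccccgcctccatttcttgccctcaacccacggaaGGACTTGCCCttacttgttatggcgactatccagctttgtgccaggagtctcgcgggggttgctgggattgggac
The decamer was present in 2745 of 32851 promoter windows of the same length (8.36%). The listed windows of Bbc3, Bcl2l11, Bak1, Bcl2, Bcl2l1, Mcl1 and Apaf1 held 0 matches, and that of Pmaip1 was not analysed here. A pair of decamers within 13 bases was found in 24 windows (0.0731%), and in none of those listed for these genes. A match is a run of letters and was not tested for binding.

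Depth ran from 6454322 reads (female PGC replicate 2) to 24791414 (male soma replicate 2) in a library. In the table scaled per cell, the median gene of a library ran from a log2 value of 3.59 to 6.07, and within male soma replicate 3 was the outlying library (5.25 against 4.33 and 4.29). Per cell, the log2 difference of PGCs from soma had a median over all genes of 1.42 in males and 2.36 in females, so per-cell differences are read against that shift. With libraries centred on their medians, the per-cell rises of Mcl1 in males and of Bbc3, Bcl2l11, Bcl2l1, Mcl1, Apaf1 and Trp53 in females turned below 0. Of these, Mcl1 in males and Bcl2l1 in females did not pass after centring (limma, adjusted p = 0.204 and 0.530). The 6 germ cell markers summed to 3040 to 4327 CPM in the PGC libraries and to 9.80 to 151 in the soma libraries. The 4 gonadal soma markers summed to 744 to 2055 CPM in soma and to 4.68 to 29.4 in PGCs, so both sorted populations carried the markers of their labels. The soma is a mixture: the 4 erythroid markers alone summed to 3329 to 8504 CPM in male and 17450 to 29323 in female soma. In such bulk samples, fewer cells of a type and less RNA in each cell cannot be told apart.

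Pmaip1 (chr18:66458533-66465565, GRCm38) encodes NOXA, a BH3-only protein that chiefly binds MCL1. Its share was 230.2, 184 and 230.0 CPM in male PGC replicates 1 to 3 and 0.437, 2.98 and 1.52 in male soma. In female PGCs it was 0.806, 0.620 and 0.669 CPM, from 18, 4 and 7 reads, and in female soma 2.67, 2.30 and 2.03. The 3 male PGC libraries lay far above the other 9, and the male soma and female soma ranges overlapped. Male PGCs exceeded male soma 130.2-fold and female PGCs 307-fold in mean CPM. Per read, log2 differences are those of the deposited values, in which a member moved by 0.508 to 0.837 for each log2 unit of CPM. They are therefore not log2 ratios of CPM. In the per-read table Pmaip1 rose by 5.81 ± 0.282 (log2 difference ± SE) in male PGCs over soma and the female minus male PGC difference was -6.37 ± 0.282, with limma's Benjamini-Hochberg adjusted p of 2.01e-10 and 1.10e-09.

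For Pmaip1 in female PGCs the direction depended on the scale. Its share was below female soma in every library, and the per-read difference was -1.06 ± 0.282 (limma, adjusted p = 0.00317). The same reads tested with precision weights (limma's voom) gave -1.65 and an adjusted p of 0.0978. Per cell, female PGCs held 1.47 ± 0.263 units (a relative scale, n = 3) and female soma 0.869 ± 0.0992, a difference of 0.75 ± 0.516 on the log2 scale that did not pass (limma, adjusted p = 0.159). The level in male soma was 0.768% of that in male PGCs, within the 0.142% to 1.73% at which the 6 germ cell markers were found there, and the part of carried-over germ cell RNA was not tested.

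Bbc3 (chr7:16308393-16318205), the gene of PUMA, which binds all the prosurvival proteins, had the reverse order between the sexes of germ cells. It was at 3.01, 3.24 and 3.22 CPM in male PGCs and 8.95, 7.90 and 10.52 in female PGCs, against 9.83, 7.95 and 8.10 in male soma and 21.1, 16.6 and 13.48 in female soma. Male PGCs were the lowest group and female soma the highest, while female PGCs and male soma overlapped. Bbc3 was 2.89-fold higher in female than in male PGCs by mean CPM. It was higher both per read (0.70 ± 0.126, limma, adjusted p = 0.000244) and per cell (1.42 ± 0.441, adjusted p = 0.00447). Between somas, female minus male, it was 0.56 ± 0.126 per read (limma, adjusted p = 0.00542) and 0.07 ± 0.441 per cell (adjusted p = 0.896). The difference between the sexes in the PGC minus soma contrast did not pass per read (0.14, adjusted p = 0.520) or per cell (1.36, adjusted p = 0.0599).

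Bcl2l11 (chr2:128126038-128162547), the gene of BIM, which acts when survival factors are withdrawn, did not separate the sexes of germ cells. Its share was 12.6, 19.9 and 14.5 CPM in male PGCs and 22.8, 16.9 and 21.3 in female PGCs, and these ranges overlap. Soma was higher, at 67.8, 55.5 and 55.4 CPM in males and 74.6, 51.1 and 64.5 in females. The per-read difference from soma was -1.33 ± 0.138 in males and -1.20 ± 0.138 in females (limma, adjusted p = 5.79e-07 and 1.92e-06). Per cell, Bcl2l11 rose in female PGCs (0.80 ± 0.322, limma, adjusted p = 0.0155), a call lost without female PGC replicate 1 (0.65, adjusted p = 0.097) or female soma replicate 2 (0.56, adjusted p = 0.144), and it differed by -0.32 ± 0.322 in males (adjusted p = 0.349; -1.53 with libraries centred on their medians, adjusted p = 4.75e-06). All neighbouring groups overlapped in the order of per-cell levels: 41.7 ± 14.3 units in male soma, 40.2 ± 9.11 in female PGCs, 32.8 ± 7.62 in male PGCs and 23.3 ± 6.09 in female soma.

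Of the effectors, Bax (chr7:45461697-45466898) was the one that germ cells expressed. It was at 147, 188 and 157 CPM in male PGCs, 73.2, 70.8 and 86.9 in female PGCs, 59.3, 64.9 and 55.2 in female soma and 51.0, 44.5 and 46.0 in male soma. No neighbouring groups overlapped in this order. The per-read rise over soma was 1.49 ± 0.0879 in males and 0.28 ± 0.0879 in females (limma, adjusted p = 1.41e-09 and 0.0101), and without female PGC replicate 3 the female value was 0.21 with an adjusted p of 0.0512. Male PGCs exceeded female PGCs 2.13-fold in mean CPM (per-read log2 difference, female minus male, -0.97 ± 0.0879, limma, adjusted p = 4.38e-07). Per cell, Bax stood at 342 ± 42.6 units in males' PGCs and 33.4 ± 12.7 in their soma. In females PGCs had 151 ± 20.8 units and soma 21.7 ± 1.62.

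Bak1 (chr17:27019810-27029009), the other effector, was low in PGCs of both sexes, at a share of its soma level within the range of the gonadal soma markers. It had 24, 17 and 30 reads in male PGCs (1.15, 0.697 and 1.69 CPM) and 27, 13 and 4 in female PGCs (1.21, 2.01 and 0.382). Male soma held 35.1, 35.5 and 33.0 CPM and female soma 38.1, 39.0 and 40.2. The PGC libraries of both sexes overlapped, and all lay below all soma libraries. The PGC level was 3.42% of soma in males and 3.07% in females. The 4 gonadal soma markers stood at 0.279% to 4.19% and 0.562% to 3.59% of their soma level in the same PGCs, and how much of the Bak1 signal came from carried-over soma cells was not tested. Bak1 fell in PGCs per read (-3.04 ± 0.202 in males, -3.23 ± 0.202 in females, limma, adjusted p = 4.66e-09 and 3.49e-09) and per cell (-3.31 ± 0.473 and -2.81 ± 0.473, adjusted p = 7.72e-12 and 4.48e-09). Bak1 overlaps Ggnbp1 on the opposite strand, and whether reads were counted by strand was not given in the sources used here. Ggnbp1 was at 12.7 ± 4.31 CPM in male PGCs and 5.07 ± 1.08 in male soma.

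Bcl2 (chr1:106538178-106714274), the founding prosurvival gene, fell in germ cells of both sexes per read, and further in males. It had 10, 8 and 7 reads in male PGCs, or 0.478, 0.328 and 0.395 CPM. Female PGCs had 7.03, 10.4 and 6.60 CPM, male soma 55.3, 68.0 and 57.8, and female soma 65.2, 61.7 and 85.3. Male PGCs were below female PGCs, which were below both somas, and the somas overlapped. The per-read difference from soma was -4.40 ± 0.147 in males and -2.35 ± 0.147 in females (limma, adjusted p = 6.90e-12 and 3.53e-09). Female PGCs were 19.98-fold above male PGCs in mean CPM. The per-read difference between them was 2.21 ± 0.147 (limma, adjusted p = 2.86e-08), and by voom on the reads it was 4.14. Male PGCs held 0.663% of the male soma level of Bcl2, within the 0.279% to 4.19% of the 4 gonadal soma markers there, and how much of it came from carried-over soma cells was not tested. Female PGCs held 11.3% of the female soma level, above the 0.562% to 3.59% of the 4 gonadal soma markers. Female PGC replicate 2 had the highest Bcl2 and Bak1 of its group and the most soma marker signal, a sum of 29.3 CPM against 5.55 and 4.68 in replicates 1 and 3, and the part of this was not tested. Per cell the female difference from soma was -0.72 ± 0.407 and did not pass (limma, adjusted p = 0.0838); it passed without male soma replicate 3 (adjusted p = 0.0315), by voom (-0.75, adjusted p = 0.0498) and with libraries centred on their medians (-2.92, adjusted p = 6.21e-08).

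Bcl2l1 (chr2:152780668-152831728), the gene of BCL-XL, showed no difference between the germ cells of both sexes that passed the test. Male PGCs had 81.1, 66.4 and 74.7 CPM and female PGCs 78.1, 85.5 and 75.9, against 61.7, 68.9 and 59.2 in male soma and 99.8, 115 and 83.8 in female soma. Germ cell ranges overlapped each other and, on this scale, those of the soma of their own sex. The female minus male PGC difference was -0.03 ± 0.0911 per read and 0.01 ± 0.289 per cell (limma, adjusted p = 0.812 and 0.976). The per-read difference from soma was small in both sexes, 0.26 ± 0.0911 in males and -0.24 ± 0.0911 in females (limma, adjusted p = 0.0164 and 0.0272). With precision weights (voom) the male value was 0.21 with an adjusted p of 0.0872, and without male PGC replicate 1 or male soma replicate 3 the adjusted p was 0.0731 or 0.0698. The female call was lost without female PGC replicate 1 or 3 or female soma replicate 1 or 2 (adjusted p from 0.0627 to 0.126), and with libraries centred on their medians it was -0.03 (adjusted p = 0.728). Per cell the Bcl2l1 groups of PGCs and soma did not overlap: 155 ± 18.7 and 156 ± 9.85 units in male and female PGCs, against 44.3 ± 15.1 and 35.8 ± 0.945 in soma.

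Mcl1 (chr3:95658788-95663176), a short-lived prosurvival protein that NOXA antagonises, had the highest per-length level of the 3 prosurvival genes in each group. Its share was 144, 166 and 164 CPM in male PGCs, 141, 136 and 137 in female PGCs, 225, 223 and 229 in male soma and 204, 217 and 201 in female soma. No neighbouring groups overlapped. Per read Mcl1 fell in PGCs, by 0.31 on the log2 scale in males (SE 0.0549) and by 0.46 in females (SE 0.0549; limma, adjusted p = 0.000106 and 2.54e-06), but per cell it rose by 1.11 ± 0.278 and 1.84 ± 0.278 (adjusted p = 9.49e-05 and 5.95e-11). Those rises were below the median over all genes in both sexes. With libraries centred on their medians, the male per-read fall was -0.07 and did not pass (limma, adjusted p = 0.270).

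Apaf1 (chr10:90989311-91082770), the scaffold of the apoptosome, was below soma as a share of reads. It was at 20.1, 29.8 and 25.7 CPM in male PGCs, 40.4, 35.0 and 38.1 in female PGCs, 83.8, 76.6 and 79.7 in female soma and 85.1, 87.4 and 91.9 in male soma, and no neighbouring groups overlapped. The per-read difference from soma was -1.28 ± 0.0930 in males and -0.82 ± 0.0930 in females (limma, adjusted p = 1.26e-08 and 1.62e-06), and female PGCs were above male PGCs (0.33 ± 0.0930, adjusted p = 0.00658). Per cell, Apaf1 rose in female PGCs (1.35 ± 0.302, limma, adjusted p = 1.16e-05) and differed by -0.20 ± 0.302 in male PGCs, which did not pass (adjusted p = 0.541) but was -1.41 with libraries centred on their medians (adjusted p = 1.73e-07).

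Trp53 (chr11:69580359-69591873) encodes p53, whose activity is set mainly by the stability of the protein. It was at 138, 228 and 155 CPM in male PGCs, 132, 121 and 128 in male soma and 135, 119 and 143 in female soma, and at 41.6, 37.0 and 73.0 in female PGCs. Female PGCs were the group apart: all 3 lay below every library of the other groups. Female PGCs fell below male PGCs by 1.52 on the log2 scale per read (SE 0.167) and by 1.91 per cell (SE 0.283; limma, adjusted p = 2.78e-06 and 2.19e-10), and below female soma by 1.11 per read (SE 0.167, adjusted p = 2.70e-05). Per cell the direction against soma was the opposite in females, a rise of 0.98 ± 0.283 (limma, adjusted p = 0.000662) that lay below the median over all genes, and in males Trp53 rose by 2.05 ± 0.283 (adjusted p = 1.23e-12). The male PGC minus soma value per read was 0.43 ± 0.167 (limma, adjusted p = 0.0277). It was 0.26 with an adjusted p of 0.148 without male PGC replicate 2, the highest library, and the adjusted p was 0.0835 with the gene's own variance. Without male soma replicate 2 or 3 the adjusted p was 0.0701 or 0.0619.

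**Figure D2:**
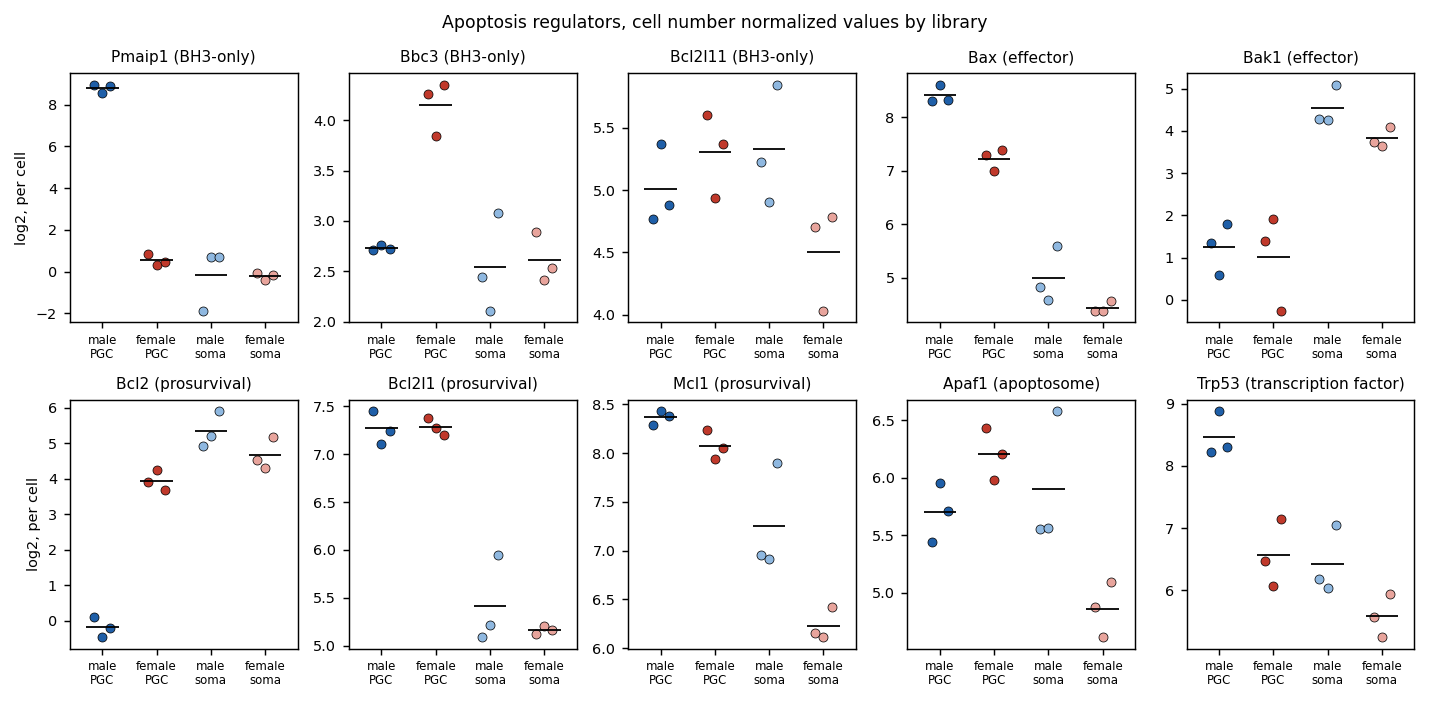
The deposited log2 values scaled to cell number for each of the 10 genes, 1 point for each library and a line at the mean of each group of 3. Bax, Bcl2l1, Mcl1 and Trp53 are above soma of the same sex in all PGC libraries of both sexes. Bak1 and Bcl2 are below it, though for Bcl2 in females the difference did not pass in the main fit. With libraries centred on their medians Mcl1 (both sexes), Bcl2l1 (females) and Trp53 (females) turn below soma. Of these turns, those of Mcl1 and Trp53 in females passed. Male soma replicate 3, the right point of its group, is the highest male soma library for each gene other than Pmaip1.

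Levels were compared between genes only per length, as RPKM (CPM divided by the kilobases of exon). Transcripts of the BH3-only members Pmaip1, Bbc3 and Bcl2l11 summed to 82.0 ± 9.34 RPKM in male PGCs, 7.08 ± 0.930 in female PGCs, 12.1 ± 1.03 in male soma and 16.8 ± 2.97 in female soma. Other measured BH3-only genes were left out of this sum, among them Bid, Bad and Bmf. They averaged 5.72, 5.43 and 8.94 RPKM over all libraries, so the sum is not that of the whole class. Pmaip1 made up 95.7% of the sum of these members in male PGCs and 3.63% in female PGCs, where Bbc3 made up 60.6%. The group that stood apart in this sum was male PGCs, and the gene that set it apart was Pmaip1.

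Transcripts of the effectors Bax and Bak1 summed to 105 ± 13.6 RPKM in male PGCs, 49.3 ± 5.20 in female PGCs, 44.3 ± 2.32 in male soma and 54.2 ± 2.89 in female soma. Bax was 99.5% and 98.9% of this sum in male and female PGCs and 67.6% and 70.0% in male and female soma. Nearly all of the sum in germ cells was Bax, while soma held both genes. Bok, a relative of both, averaged 13.2 RPKM over all libraries, was lower in PGCs than in soma and was left out. The soma shares of Bax are therefore shares of Bax and Bak1 alone.

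Transcripts of the prosurvival members Bcl2, Bcl2l1 and Mcl1 summed to 62.5 ± 2.33 RPKM in male PGCs, 58.6 ± 1.16 in female PGCs, 86.4 ± 1.33 in male soma and 90.1 ± 4.599 in female soma. Mcl1 and Bcl2l1 made up 74.0% and 25.9% of it in male PGCs and 68.8% and 29.7% in female PGCs. Bcl2 was 0.0703% in male PGCs, 1.49% in female PGCs and 7.62% to 8.63% in the somas. The log2 ratio of this prosurvival sum to that of Bax and Bak1 was -0.74 ± 0.163 in male PGCs, 0.25 ± 0.177 in female PGCs, 0.97 ± 0.0926 in male soma and 0.73 ± 0.00751 in female soma. Male PGCs were the group in which the effector sum exceeded the prosurvival sum. The log2 ratio of the prosurvival sum to that of Pmaip1, Bbc3 and Bcl2l11 was -0.39 ± 0.191 in male PGCs and 3.06 ± 0.220 in female PGCs. These sums are descriptions of transcripts, without a test, and weigh each transcript alike. They leave out measured relatives such as Bcl2l2 (9.57 RPKM over all libraries), Bok and Bid, so the ratios hold for these members only.

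**Figure D3:**
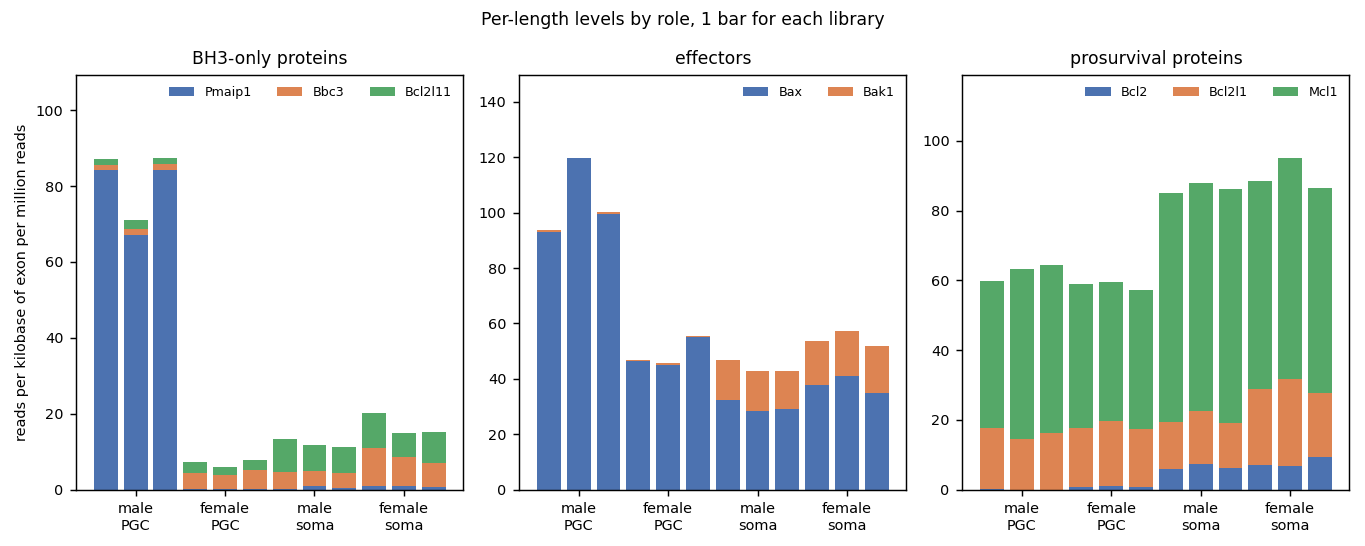
Stacked bars of RPKM, 1 bar for each library, for the 3 BH3-only genes, the 2 effectors and the 3 prosurvival genes. Pmaip1 fills the BH3-only bars of male PGCs, Bax fills nearly all of the effector bars of PGCs of both sexes, and Mcl1 is the largest part of each prosurvival bar.

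Counted over the 10 genes, the per-read table called all of them in both comparisons of PGCs with soma. In males 4 were higher and 6 lower, where 39.1% of all genes were called higher and 43.7% lower. In females 1 (Bax) was higher and 9 lower, against 38.7% and 42.3% of all genes. The median log2 difference of the 10 genes was -0.49 in males and -0.94 in females, and that over all genes was -0.06 and -0.05. With most genes called in both directions, the share called among these genes is no result about them.

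Per cell, 5 genes were higher and 2 lower in male PGCs (64% and 19.8% of all genes), and 7 were higher and 1 lower in female PGCs (77.2% and 11.5%). The median log2 difference of the 10 genes was 0.65 in males and 1.16 in females, below that over all genes in both sexes. In female PGCs only Bax of the 10 (2.79) lay above the median over all genes, and in males Pmaip1, Bax, Bcl2l1 and Trp53 did. The prior degrees of freedom of the per-cell test were infinite, so it took each gene's variance from a trend with expression level over all genes. With each gene's own variance the calls in the comparisons of PGCs with soma were the same.

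Between germ cells, female minus male, the per-read table called 3 genes higher (Bbc3, Bcl2 and Apaf1) and 4 lower (Pmaip1, Bax, Mcl1 and Trp53), with 32.8% and 32.5% of all genes called higher and lower. Per cell 2 were higher (Bbc3 and Bcl2) and 3 lower (Pmaip1, Bax and Trp53), against 24.3% and 17.7%. Pmaip1, Bbc3, Bax, Bcl2 and Trp53 were thus called in the same direction on both scales. Bcl2l11, Bak1 and Bcl2l1 passed on neither.

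Between the somas, female minus male, the per-read table called Bbc3 (0.56 ± 0.126) and Bcl2l1 (0.47 ± 0.0911) higher and 0 genes lower (limma, adjusted p = 0.00542 and 0.00182), where 13.3% and 11% of all genes were called. By limma 1 gene, Mcl1 (-0.12), was lower at an unadjusted threshold of 0.05, and voom also called 0 lower. Per cell 0 were higher (0 by voom, and 0 unadjusted) and 4 lower, Bcl2l11, Mcl1, Apaf1 and Trp53, against 2.86% higher and 63.6% lower over all genes. Their values ran from -0.82 to -1.04, beside a median over all genes of -0.86. Without male soma replicate 3, which stands apart, the calls of Bcl2l11 (-0.56, limma, adjusted p = 0.0891) and Trp53 (-0.53, adjusted p = 0.114) were lost. They were also lost without female soma replicate 2 (-0.58 and -0.67) and with each gene's own variance. With libraries centred on their medians all 4 calls were lost (from -0.15 to 0.06), and Bbc3 (0.95) and Bcl2l1 (0.63) were called higher.

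The difference between the sexes in the PGC minus soma contrast was tested directly. Per read it passed for 2 genes whose contrast was higher in females (Bcl2 and Apaf1). It passed for 4 whose contrast was lower (Pmaip1, Bax, Bcl2l1 and Trp53), against 27.9% higher and 28.9% lower of all genes. Per cell it passed for 3 higher (Bcl2l11, Bcl2 and Apaf1) and 2 lower (Pmaip1 and Trp53), against 42.8% and 5.16%. Pmaip1, Bcl2, Apaf1 and Trp53 passed on both scales in the same direction. The per-cell calls of Bcl2l11 and Trp53 were lost with each gene's own variance, and that of Bcl2l11 also with libraries centred on their medians (0.12). Leaving out 1 library ended the per-cell call of Bcl2l11 in 6 cases (male PGC 1 or 3, male soma 3, female PGC 1 or 3, female soma 2), with values from 0.85 to 1.08. It ended that of Trp53 in 5 (male PGC 2, male soma 2, female PGC 1 or 2, female soma 3), with values from -0.82 to -1.03. The test did not pass for Bbc3, Mcl1 or Bak1 on either scale.

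**Figure D4:**
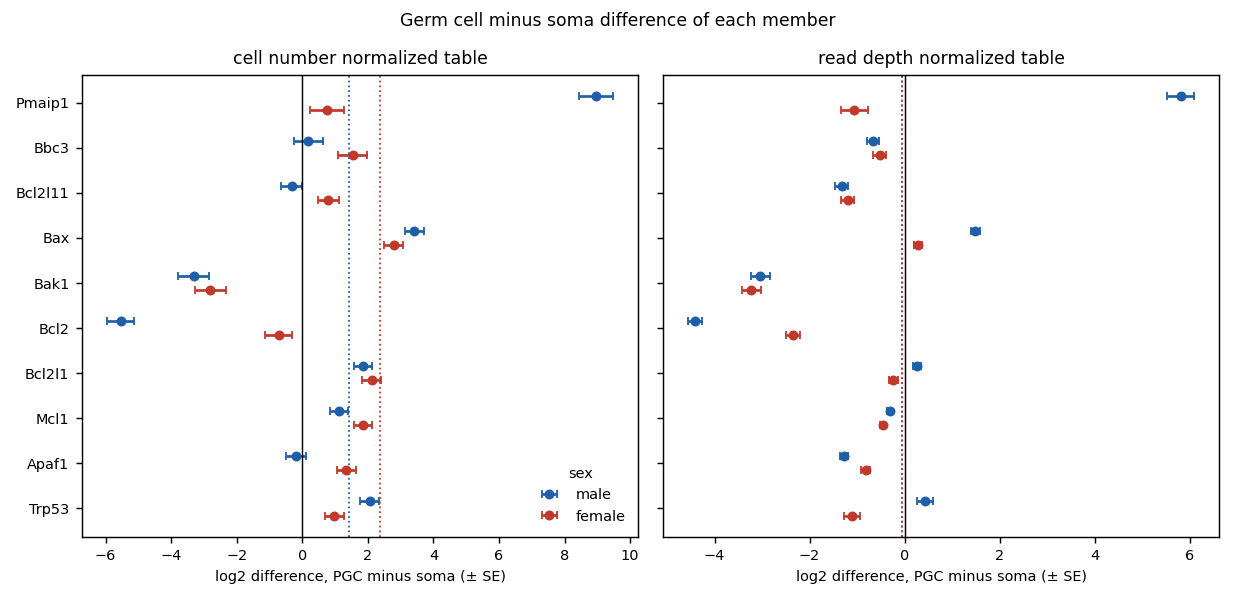
Log2 difference of PGCs minus soma for each of the 10 genes in males and females, with SE from the limma fit, in the table scaled to cell number (left) and to read depth (right). Dotted lines are the medians over all 12845 genes, at 1.42 and 2.36 per cell and -0.06 and -0.05 per read. Pmaip1 in males is the farthest point to the right in both panels and Bcl2 in males the farthest to the left.

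The wider pathway was read from 7 lists, with counts from the per-read table beside the shares of all genes given above. Of the named genes of these lists, 26 were called per read in each sex, and 2 in males (Vdac1, Ei24) and 5 in females (Bnip3l, Htra2, Ripk1, Akt1, Ywhaz) had the opposite sign per cell. Between germ cells 20 were called and 0 had the opposite sign. Among 18 measured regulators of p53, 11 rose and 3 fell in male PGCs, and 11 rose and 1 fell in female PGCs, with median log2 differences of 0.79 and 0.45. Per cell 16 and 18 rose and 0 fell, and by voom on reads 6 fell in males. Cdkn2a, whose ARF product restrains MDM2, was at 29.9 ± 6.05 CPM in male PGCs, 59.2 ± 10.3 in female PGCs, 0.0902 ± 0.0823 in male soma and 1.37 ± 2.27 in female soma, where 3.99 came from replicate 2. It rose by 4.42 ± 0.423 in males and 4.30 ± 0.423 in females (limma, adjusted p = 2.27e-07 and 3.64e-07). Mdm2, the ubiquitin ligase of p53, rose by 1.28 ± 0.0764 and 0.98 ± 0.0764 (adjusted p = 1.53e-09 and 3.27e-08). Atr, a DNA damage kinase, rose by 2.02 and 2.57, and Usp7, a deubiquitinase that acts on MDM2 and p53, by 0.87 and 0.53.

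The 19 measured p53 target genes were mixed. In male PGCs 7 rose and 9 fell and in female PGCs 5 rose and 8 fell, while per cell 10 and 15 rose and 3 and 1 fell. Between germ cells 12 were higher and 4 lower in females per read, and 5 and 3 per cell. Trp53 itself was lower in females. Most of the called targets thus went the other way from Trp53, and of the named ones Ddit4 (-1.51) and Tigar (-0.74) were lower in females. Ddit4, an inhibitor of mTORC1, was at 208 ± 29.1 CPM in male PGCs and 60.9 ± 9.35 in female PGCs. Tigar, which lowers glycolytic flux, stood at 57.0 ± 2.95 and 31.8 ± 3.90 CPM. Plk2, a kinase of the same list, fell in PGCs of both sexes (-3.02 and -3.33) and was higher in female than in male PGCs (0.56). Ei24, an endoplasmic reticulum protein, fell in males (-0.36) and did not pass in females (0.09).

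Of 12 caspases and their partners, 7 were lower and 3 higher in female than in male PGCs (per cell 3 and 1), with a median log2 difference of -0.47 against 0.01 over all genes. Casp8, the initiator of the death receptor pathway, was at 1.32 ± 0.224 and 1.89 ± 1.10 CPM in male and female PGCs and 21.3 ± 1.28 and 21.6 ± 4.58 in soma. Cycs, cytochrome c itself, rose in PGCs (0.92 and 0.62), as did Parp1, a caspase substrate (1.40 and 1.07). Against soma 4 were higher and 5 lower in males and 3 higher and 6 lower in females, and per cell 7 and 2, and 9 and 1.

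Of 9 measured death receptor genes 2 rose and 5 fell in PGCs of each sex, while per cell 4 rose and 3 fell in males and 7 rose and 2 fell in females. Tnfrsf1a, the main TNF receptor, was at 2.60 ± 0.148 CPM in male and 4.71 ± 1.51 in female PGCs, against 117 ± 4.90 and 92.1 ± 13.7 in soma. Cflar, which blocks Casp8, fell by 2.58 and 2.57 on the log2 scale (SE 0.120 for each, limma, adjusted p = 1.39e-10 and 2.53e-10), and Ripk1 by 2.05 and 1.04. Faf1, a FAS-associated factor, rose (1.45 and 1.54). Fas and Fasl were not analysed here.

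Of the other 9 measured BCL2 relatives, 4 rose and 5 fell in male PGCs and 3 rose and 5 fell in female PGCs, while per cell 6 and 7 rose and 1 fell in each sex. By voom on reads 2 rose in males. Bid, the BH3-only link from Casp8 to mitochondria, was at 22.3 ± 0.566 CPM in male and 42.6 ± 5.91 in female PGCs, against 5.41 ± 0.649 and 10.9 ± 0.560 in soma. It rose by 1.39 and 1.35 (SE 0.106 for each, limma, adjusted p = 2.08e-08 and 3.66e-08). Bok, a relative of Bax and Bak1, was low in PGCs like Bak1, at 4.02 ± 0.993 and 2.92 ± 0.669 CPM against 51.5 ± 0.748 and 39.0 ± 8.44 in soma. Bnip3, a mitophagy receptor, rose in both sexes (1.18 and 1.16), and its relative Bnip3l rose in males (0.31) and fell in females (-0.75).

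Among 12 inhibitors of apoptosis and mitochondrial proteins, 5 rose and 4 fell in males and 6 rose and 3 fell in females, while per cell 9 rose in each sex and 1 and 0 fell. Endog, a mitochondrial nuclease, rose by 1.10 and 1.42, and Htra2, a protease that antagonises inhibitors of apoptosis, fell by 1.68 and 1.43 on the log2 scale. Vdac1, the main outer membrane channel, was at 99.1 ± 30.4 CPM in male and 36.1 ± 2.96 in female PGCs. Vdac3, another channel of that family, ran the other way, at 174 ± 15.6 and 288 ± 9.96. Both differences between germ cells passed (-1.19 ± 0.130 and 0.46 ± 0.0741, limma, adjusted p = 2.58e-06 and 8.86e-05).

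In the list of MCL1 turnover and survival signalling, 7 of 12 rose and 2 fell in male PGCs, and 5 rose and 5 fell in female PGCs, while per cell 10 and 11 rose and 2 and 1 fell. Fbxw7, a ubiquitin ligase subunit that can target MCL1, rose by 1.43 and 1.57. Akt1, a survival kinase, was at 69.9 ± 17.98 CPM in male PGCs and 137 ± 20.9 in female PGCs, against 522 ± 17.2 and 382 ± 22.3 in soma. Kitl, the survival ligand that soma presents to germ cells, was at 70.2 ± 0.341 CPM in male and 194 ± 8.37 in female soma. In female PGCs Kitl was at 1.30, 16.6 and 0.956 CPM, with replicate 2 above the others. Ywhaz, a 14-3-3 adaptor, differed little, with -0.07 in males, which did not pass, and -0.26 in females.

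**Figure D5:**
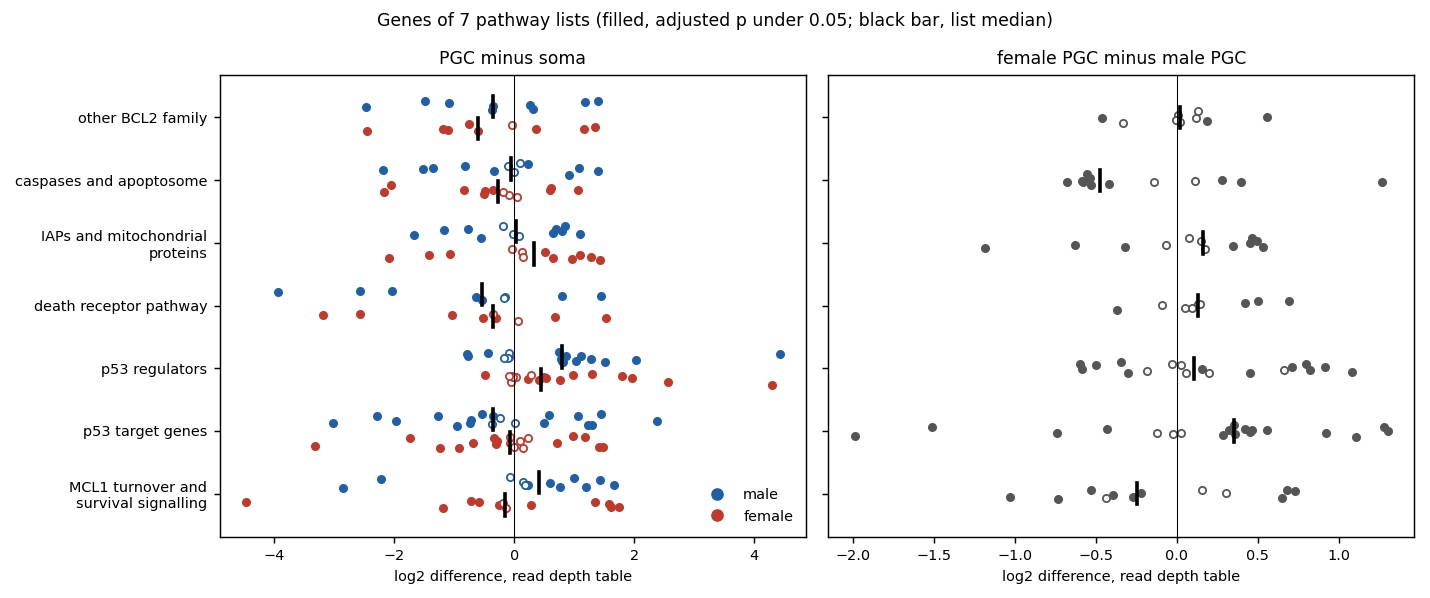
Log2 differences in the read depth table for the measured genes of 7 pathway lists, PGCs minus soma in each sex (left) and female minus male PGCs (right), with filled points past an adjusted p of 0.05 and a black bar at each list's median. The p53 regulators have medians of 0.79 and 0.45 in the left panel, and the caspase list has a median of -0.47 in the right panel.

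Pmaip1 had the largest rise and Bcl2 the largest fall in PGCs when both sexes were averaged. By Pearson correlation of the per-read values over the 12 libraries, the genes most like Pmaip1 were Dgka (0.995), Nudt9 (0.987) and Sdc4 (0.987). All genes of a library share its preparation and depth. Dgka averaged 136 CPM in male PGCs and between 8.86 and 15.3 in the other groups, and Sdc4 averaged 628 and between 30.3 and 47.8. The genes most like Bcl2 were Ltbp3 (0.998), Gpc6 (0.997) and Sh3bp2 (0.997). Ltbp3 averaged 1.83 CPM in male PGCs, 27.0 in female PGCs, 236 in male soma and 259 in female soma, the same order as Bcl2.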

How the data were processed

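RNA was sequenced from 12 libraries, 3 for each of male and female PGCs and soma. The authors deposited 2 tables of log2 values, read here as scaled to cell number (external RNA was added per number of cells, per the labels' protocols) and to read depth. Per the submitters' processing notes, the build was mm10 and the tools included limma 3.28.14, edgeR 3.14.0 and DESeq2 1.12.3 (in R 3.3.0), HTSeq 0.6.1p1, TopHat2 2.0.9 and Trim Galore 0.4.0. For strand setting, annotation and gene filter the answer was not given in the sources used here. Each cell number value equalled log2 of a whole read number plus 0.5 over a library constant within 0.001 reads (100% of values in each library). These reads gave CPM and, with GENCODE vM21 exon lengths, RPKM. The transform of the read depth table is not given, and there a member moved by 0.508 to 0.837 for each log2 unit of CPM. Replicates of a group differed by more than counting error (chi-square over its degrees of freedom from 5.43 to 30.5).

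Both tables were fitted over all 12845 genes with limma 3.58.1 (R 4.3.3; 4 group means, intensity trend) with Benjamini-Hochberg adjustment, called at 0.05, after the pipeline was tested on simulated data. Python 3.11.15, pandas 2.3.3, numpy 2.4.6 and matplotlib 3.10.9 were used. All 10 members are named, with up to 4 genes of each list: the 2 highest per length and the 2 others that changed most; 1 gene so chosen is not reported here. The members and lists were chosen with earlier results of these data known. As alternatives each library was left out in turn, the lowest 25% of genes were dropped, and fits used median centring, voom on the recovered reads, a replicate block or, added after the data were seen, each gene's own variance. Bik, Hrk, Bcl2l10, Bcl2l14, Bcl2a1b, Bcl2a1d, Casp12, Trp63, Perp and Dnmt3l were not analysed here.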

Additional observations from a re-analysis of the deposited data

Results flagged for a closer look

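For 6 genes the PGC minus soma contrast differed between females and males in the read depth table, by limma's test of the difference with Benjamini-Hochberg adjustment. The log2 difference of differences, female minus male, was -6.87 for Pmaip1 (adjusted p = 3.05e-08), -1.21 for Bax (3.19e-06), 2.05 for Bcl2 (2.81e-06), -0.50 for Bcl2l1 (0.00475), 0.46 for Apaf1 (0.00891) and -1.54 for Trp53 (9.81e-05). In the cell number table it passed for 5 genes, at -8.21 for Pmaip1, 1.11 for Bcl2l11, 4.81 for Bcl2, 1.54 for Apaf1 and -1.07 for Trp53, beside a median over all genes of 0.91. Of these, Bcl2l11 (adjusted p = 0.0843) and Trp53 (0.142) did not pass with each gene's own variance. The contrast takes in soma as well as PGCs. For Bcl2l1 per read, female minus male was -0.03 between PGCs (limma, adjusted p = 0.812) and 0.47 between somas (0.00182). Per cell, female minus male for Apaf1 and Bcl2l11 was 0.50 and 0.29 between PGCs, which did not pass (adjusted p = 0.173 and 0.488). Between somas it was -1.04 and -0.82 (adjusted p = 0.00255 and 0.0199), beside a median over all genes of -0.86. Pmaip1 rose per read in males (5.81) and fell in females (-1.06), and Bcl2l1 (0.26 and -0.24) and Trp53 (0.43 and -1.11) did likewise. The Bcl2l1 calls in both sexes and the Trp53 call in males were lost under some of the alternatives, and the female Pmaip1 call was lost by voom.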

How the results depend on the processing

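In the read depth table every direction of a called member held under the alternatives run. The exceptions are in the cell number table, where median centring, which removes the shift of whole libraries, turned 14 directions. These are the turns in which a call was made before or after centring, and turns without a call were not counted. For female PGCs against soma it gave -1.45 for Pmaip1, -0.66 for Bbc3, -1.40 for Bcl2l11, -0.080 for Bcl2l1, -0.36 for Mcl1, -0.85 for Apaf1 and -1.22 for Trp53. For male PGCs against soma it gave -1.02 for Bbc3 and -0.10 for Mcl1. For female against male soma it gave 0.063 for Bcl2l11, 0.63 for Bcl2l1 and 0.044 for Trp53, and for the difference between sexes -0.72 for Bcl2l1 and -0.26 for Mcl1. After centring, Bcl2l1 in females, Mcl1 in males, and Bcl2l11 and Trp53 between somas did not pass (limma, adjusted p = 0.530, 0.204, 0.871 and 0.927). Counts of members called per cell between somas (4 lower) came to 2 with median centring, both other genes and higher (Bbc3 and Bcl2l1), and to 2 with each gene's own variance (Mcl1 and Apaf1). Median centring also gained per-cell calls for Bcl2l11 and Apaf1 in males, Bcl2 in females, Mcl1 (-0.40) and Apaf1 (0.40) between germ cells, and Bax (-1.62) in the difference between sexes. With the lowest 25% of genes left out, 7 members were tested, and 3 were called between germ cells per cell and 1 between somas per read. Leaving out 1 library gave, per cell, 7 to 7 calls for males, 7 to 9 for females, 5 to 6 between germ cells, 2 to 5 between somas and 3 to 6 for the difference between sexes. The same gave, per read, 8 to 10, 8 to 10, 7 to 7, 2 to 3 and 6 to 7. The fewest calls between somas per cell came without male soma replicate 3 or female soma replicate 2, and the fewest for the difference between sexes without female PGC replicate 1. Calls gained without 1 library were, per cell, Bbc3 (difference between sexes, without male soma 2 or 3), Bax (somas, without male soma 2, and difference between sexes, without male soma 3), Mcl1 (difference between sexes, without male soma 2), Apaf1 (between germ cells, without male soma 3) and Bcl2 (females, without male soma 3). Per read they were Pmaip1 (somas, without male soma 2), Bax (somas, without male PGC 2) and Mcl1 (difference between sexes, without male PGC 1). Same-numbered PGC and soma libraries correlated in their deviations at 0.016 to 0.051 in males and -0.072 to 0.071 in females. Most PGC libraries, but not all, correlated best with the soma library of their own number. With values this small, the check cannot decide whether the numbers mark pairs. The replicate block changed none of the 50 member results in either table. Depth limits Bak1 in PGCs (4 to 30 reads), Bcl2 in male PGCs (7 to 10) and Pmaip1 outside male PGCs (4 to 74), and Bbc3 had 51 to 79 reads in male PGCs and female PGC replicate 2.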
